A study of Mus musculus with 3 samples.

Results

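Vessel cells and macrophages from the knee joint lining and fat pad of mice were compared between 1 week and 2 months after DMM, a surgical release of the medial meniscus that leads to osteoarthritis. Members were taken by marker counts alone from the 2 operated libraries, among barcodes that held 500 genes or more and no more than 10% mitochondrial UMIs (unique molecular identifiers, each the tag of 1 captured transcript). Endothelium had at least 3 UMIs of Cdh5 and Pecam1 together and none of Ptprc. Mural cells, the pericytes and smooth muscle cells around vessels, had at least 1 UMI of Notch3 and none of Pdgfra, Ptprc or Cdh5. Macrophages had at least 10 UMIs of the complement genes C1qa, C1qb and C1qc together. In endothelium and macrophages the fibroblast transcripts Col1a2, Col3a1 and Dcn also had to stay under 0.2% of a cell's UMIs, a limit from which mural cells were exempt. These rules found 5907 cells, 3776 at 1 week and 2131 at 2 months, among 22098 cells that passed in the 2 libraries and 30197 in the whole series.

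The series holds 3 droplet libraries of wild-type (wt) mice, 1 for each group: a control of 2-month-old mice, and mice that had DMM at 2 months of age and were harvested 1 week or 2 months later. Tissue of 5 to 10 mice went into each library, digested in trypsin and then collagenase I and sorted for live cells. The mice of the later group were also older at harvest, so age and time since surgery cannot be told apart, and the sources used here name neither sex nor hour of harvest. With 1 library a group there is no replicate check and no test between groups: every interval is a 95% interval for counting error only, and every value compares libraries. The control library is given as the level measured in the same way outside the DMM groups. It enters no ratio, and whether its mice had a sham operation is not known here.

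Endothelial cells line blood and lymph vessels, and those of fat capillaries take up fatty acids and show a transcript pattern set partly by blood flow. When vessels sprout, tip cells make guidance receptors and new basement membrane, and mural cells that cover the vessel can lose contractile proteins and make matrix. Resident synovial macrophages carry scavenger and clearance receptors, whereas macrophages that derive from recruited monocytes and take up lipid debris often express a programme around Spp1, Gpnmb and Trem2. Type I and II interferons switch on a shared set of antiviral genes in all of these cells.

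The promoters of 2 gene groups with lower or higher levels in all 3 classes are shown first, because some of their members carry recognisable response elements. Interferon-stimulated genes are switched on through the interferon-stimulated response element, whose core is GAAA, any 2 bases, then GAAA, on either strand. Of 25 interferon genes on the list used here, 20 were in the RefSeq promoter table of GRCm38.p6 (250 bases before to 50 after a start). The core was held in at least 1 promoter by 12 of these. It was found in 3.44% of 32851 promoters of 300 bases and, counted by gene in the same way, in 3.99% of 27025 genes. Irf7 and Ifit2, both among the lower genes reported below, held none. The windows below run 5′ to 3′ on the strand of the gene, with the core in capitals, for a pair of interferon-induced Ifit proteins and for the ubiquitin-like protein Isg15. They lie at chr19:34640760-34640838 on the plus strand, chr19:34583348-34583441 on the plus strand and chr4:156200850-156200921 on the minus strand.
Ifit1: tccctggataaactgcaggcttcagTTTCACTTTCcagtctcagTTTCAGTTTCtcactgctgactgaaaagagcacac
Ifit3: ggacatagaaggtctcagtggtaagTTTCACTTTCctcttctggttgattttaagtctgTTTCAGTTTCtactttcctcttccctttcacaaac
Isg15: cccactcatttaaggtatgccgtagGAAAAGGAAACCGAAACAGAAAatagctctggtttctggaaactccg
The window of Ifit3b, a close relative of Ifit3, had the same letters. Whether the reads of these 2 genes can be fully told apart was not tested. The circadian clock genes are driven through the E-box CACGTG and the D-box TTATGTAA. Of 17 clock genes on the list, 15 were in the table, 5 of them held the E-box and 1 held the D-box. The E-box was in 7.15% of all promoters and 8.09% of genes, the D-box in 0.938% and 1.11%. Dbp, whose levels are given below, held neither, nor did Nr1d1, Nr1d2 and Cry2. The windows of Ciart, a repressor of the clock, Per1 and Per3, both period proteins, lie at chr3:95882238-95882357 on the minus strand, chr11:69098758-69098817 on the plus strand and chr4:151044789-151044895 on the minus strand, with E-boxes or D-boxes in capitals.
Ciart: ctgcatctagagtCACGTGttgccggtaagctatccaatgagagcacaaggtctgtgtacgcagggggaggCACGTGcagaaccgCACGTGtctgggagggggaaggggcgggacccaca
Per1: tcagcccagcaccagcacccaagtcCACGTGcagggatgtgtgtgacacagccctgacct
Per3: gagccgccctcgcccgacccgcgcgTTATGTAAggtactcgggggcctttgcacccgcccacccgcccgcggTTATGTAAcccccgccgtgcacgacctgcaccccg
A match describes the letters of the window and is not a bound site.

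The 3 classes were checked against marker lists. The 8 endothelial markers summed to 5794 CPM (counts per 1000000 UMIs of a class) at 1 week and 5641 CPM at 2 months in endothelium, the 8 mural markers to 11221 and 17245 CPM in mural cells, and the 8 macrophage markers to 13562 and 16107 CPM in macrophages; these lists include the gate genes. The 8 fibroblast markers summed to 15080 and 8782 CPM in mural cells, to 1282 and 1985 CPM in endothelium and to 1319 and 1593 CPM in macrophages, while the 8 neutrophil markers reached 5210 CPM in macrophages at 2 months. For each pair of classes, 0 to 2 cells of an operated library passed both gates. Members just inside a gate were few except in mural cells: 12 and 15 endothelial cells had exactly 3 gate UMIs and 10 and 1 macrophages exactly 10, at 1 week and 2 months, but 149 and 62 mural cells had a single Notch3 UMI. Just outside, 9 and 10 cells were 1 UMI short of the endothelial gate and 9 and 1 of the macrophage gate, and 1376 and 815 cells met the other mural conditions with no Notch3 UMI. The libraries held 179561680 UMIs at 1 week and 159333121 at 2 months, and 30 barcodes occurred in both, 2 of them in a class in both. Median depth per cell was 10359 and 11645 UMIs in endothelium, 11025 and 11252 in mural cells, and 9793 and 11311 in macrophages.

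All 3 classes took a smaller share of the 2-month library. Endothelium was 1332 cells or 10.8% (10.3 to 11.4) at 1 week and 928 cells or 9.49% (8.91 to 10.1) at 2 months, 0.877 times (0.806 to 0.955) the earlier share. Mural cells were 711 cells or 5.77% (5.37 to 6.20) and 423 cells or 4.32% (3.93 to 4.75), a ratio of 0.749 (0.663 to 0.846). Macrophages were 1737 cells or 14.1% (13.5 to 14.7) and 786 cells or 8.04% (7.50 to 8.59), a ratio of 0.570 (0.523 to 0.620). In the control the shares were 12.1% (981 cells), 8.57% (694 cells) and 11.8% (952 cells). The direction for the vessel classes rests on the limit on fibroblast transcripts. With 0.1% in place of 0.2%, and 0.5% for mural cells, the ratio was 1.05 in endothelium, 1.32 in mural cells and 0.728 in macrophages. The median fibroblast-transcript content moved with time, at 0.067% and 0.028% of UMIs in endothelium, 0.541% and 0.134% in mural cells and 0.073% and 0.033% in macrophages, and its part in the shares was not tested further. A share also depends on how many other cells were recovered, so these shares say nothing of cell numbers in the joint.

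A gene counted as higher or lower when its class CPM differed by at least 2-fold between the libraries. Where both sums together reached 200 UMIs and 1 of them 20 CPM, 294 of 6584 (4.47%) were higher and 145 (2.2%) lower at 2 months in endothelium. In mural cells 433 of 6608 (6.55%) were higher and 442 (6.69%) lower, and in macrophages 401 of 6100 (6.57%) were higher and 227 (3.72%) lower. For gene lists every member with at least 50 UMIs was counted. Over all genes of that depth, 7.92% were higher and 4.06% lower in endothelium (11869 genes), 8.19% and 7.79% in mural cells (10910 genes), and 8.7% and 5.39% in macrophages (11253 genes). Each count below is read against these shares. The median log2 ratio of all these genes was 0.07 in endothelium, 0.01 in mural cells and 0.11 in macrophages. Gene levels are not corrected for length, and 3′ counting makes levels of different genes hard to set against each other. Only levels of the same gene are compared.

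**Figure D1:**
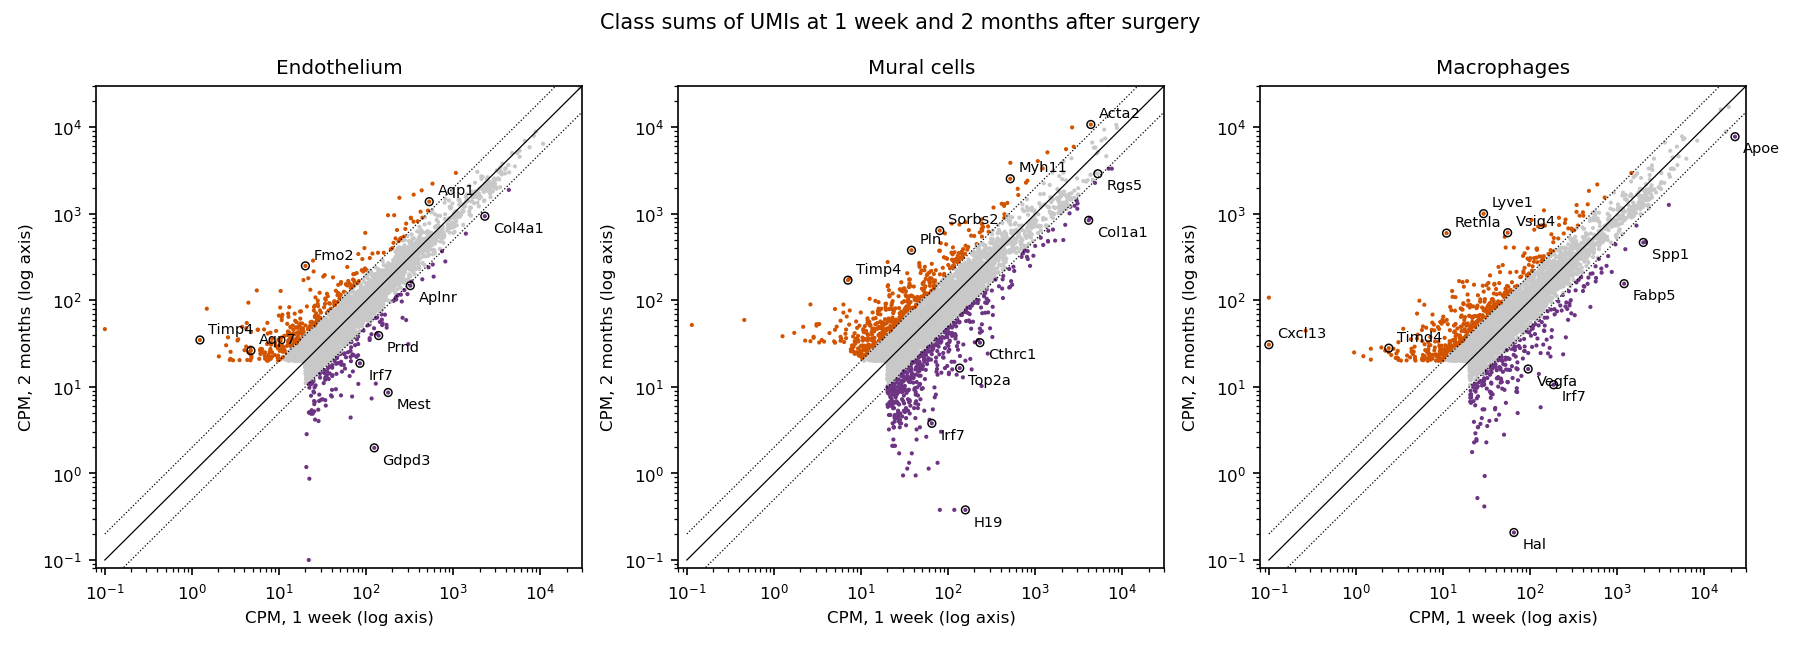
CPM of each gene at 1 week (x axis) and 2 months (y axis), both on log axes, in endothelium, mural cells and macrophages; the solid line marks equal levels, the dotted lines a 2-fold difference, orange points are higher and purple points lower at 2 months, and sums of 0 UMIs are drawn at 0.1 CPM. Genes of at least 200 UMIs and 20 CPM are shown: the 433 higher and 442 lower genes of mural cells were about equal in number, while higher genes outnumbered lower ones in endothelium (294 and 145) and macrophages (401 and 227).

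Pan-endothelial genes stayed under 2-fold between the 2 times. Of 18 measured, 0 were higher and 0 lower, and their summed level was 7031 CPM in the control library, 7619 at 1 week and 8299 at 2 months. Each cell was chosen by its Cdh5 and Pecam1 UMIs, so this similarity is partly set by the gate. Among capillary and fatty-acid handling genes 8 of 16 members were higher and 1 lower, with a median log2 ratio of 0.98, beside 0.46 for the same genes in fibroblasts. Timp4, an inhibitor of matrix metalloproteinases made by fat capillaries (chromosome 6, 115241892 to 115252205, minus strand, GRCm38), was at 160.5 CPM in the control library, 1.23 at 1 week and 34.9 at 2 months, 28.3 times the 1-week level (18.1 to 46.7). Its level was lowest at 1 week and highest in the control. Aqp7, a glycerol channel, was at 73.2 CPM in the control library, 4.75 at 1 week and 26.3 at 2 months, 5.54 times the 1-week level (4.31 to 7.197). Lpl, the lipase that frees fatty acids from lipoproteins, was at 90.9 CPM in the control library, 9.004 at 1 week and 32.5 at 2 months, 3.61 times the 1-week level (2.98 to 4.39), and the capillary carbonic anhydrase Car4 at 65.02 CPM in the control library, 0.678 at 1 week and 14.9 at 2 months, 21.9 times the 1-week level (11.97 to 44.6). In these 4 genes the order of the libraries was the same: control highest, 1 week lowest. The fatty-acid transporter Cd36 was at 676, 199 and 402 CPM in the 3 libraries in that order, a 2-month level 2.01 times that at 1 week, the water channel Aqp1 at 959.5, 529 and 1382 CPM, and the capillary transcription factor Tcf15 at 181, 17.8 and 74.7 CPM. Btnl9, a membrane protein of capillaries, was also higher (3.03 times). The exception was Fabp5, a fatty-acid binding protein, at 571, 519 and 241 CPM, 2.16-fold lower at 2 months, and its relative Fabp4 differed little, at 11416, 4729 and 5043 CPM.

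Fewer endothelial cells had a UMI of Timp4 or Aqp7 at 1 week than at the other times. After each cell was thinned to 4000 UMIs, which left out 192, 50 and 54 shallower cells of the control, 1-week and 2-month libraries, the share with Timp4 was 23.1% in the control library, 0.546% at 1 week and 8.12% at 2 months, while fibroblasts thinned to the same depth showed it in 0.122% and 0.1704% at the 2 operated times. Before thinning the shares of endothelial cells were 31.8%, 0.901% and 12.2%. Aqp7 was seen in 23.2%, 1.79% and 7.55% of thinned endothelial cells (fibroblasts 0.0203% and 0.0487%). For Lpl the shares were 17.9%, 2.11% and 8.24%, below those of fibroblasts (13.9% and 17.1%), so the operated Lpl shares are not read as expression. Cd36 did not follow its CPM, with 62.2%, 35.02% and 35.9% of cells, and no difference in the share of cells is read from it.

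More genes of sprouting were lower than higher, with a median near 0, and the basement-membrane genes were lower. Of 20 tip-cell and angiogenic genes, 2 were higher and 5 lower, with a median log2 ratio of -0.16. Ratios were below 1 for 14 of them and above 1 for 6. Over all genes of that depth in endothelium 7.92% were higher and 4.06% lower. Aplnr, the apelin receptor of sprouting and venous endothelium (chromosome 2, 85136225 to 85139923, plus strand), was at 123 CPM in the control library, 321 at 1 week and 148 at 2 months, 2.17-fold lower (2.06 to 2.29). After thinning it was seen in 31.1%, 59.5% and 32.04% of endothelial cells and in 0.284% and 0.122% of fibroblasts at the operated times, so the 2-month value lay close to the control. Prnd, the prion-like protein doppel of growing brain vessels, was at 10.7 CPM in the control library, 139 at 1 week and 39.2 at 2 months, 3.55-fold lower (3.22 to 3.92). Cxcr4, the receptor for the guidance chemokine Cxcl12, was at 16.95, 52.7 and 15.02 CPM, the basement-membrane linker Nid2 at 14.7, 77.5 and 22.2 CPM and placental growth factor Pgf at 19.4, 34.97 and 13.1 CPM. These 3 genes were 3.51-fold, 3.49-fold and 2.67-fold lower. The higher members were the vasodilator peptide Adm, at 35.9, 16.8 and 34.4 CPM, and Ramp3, a partner of its receptor, at 11.7, 2.78 and 9.01 CPM. Several textbook tip-cell genes hardly differed: Esm1 was at 59.9, 58.96 and 68.4 CPM, the Notch ligand Dll4 at 100.6, 74.5 and 82.3 CPM and the Tie2 antagonist Angpt2 at 23.5, 49.2 and 47.3 CPM.

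Among basement-membrane genes 5 of 13 were lower and 0 higher, and the sum of the list was 3495 CPM in the control library, 10894 at 1 week and 5200.1 at 2 months. The median log2 ratio was -0.60, against 0.24 for the same genes in fibroblasts. Col4a1 and Col4a2, the chains of the main collagen IV of vessels, were at 598, 2300.3 and 939 CPM and 342, 1392 and 590.3 CPM. They were 2.45-fold lower (2.401 to 2.502) and 2.36-fold lower (2.297 to 2.42) at 2 months. Col18a1, the collagen that yields endostatin, was at 96.8 CPM in the control library, 809.5 at 1 week and 282 at 2 months, 2.87-fold lower (2.77 to 2.98), and Sparc, a collagen-binding protein, at 1609.7 CPM in the control library, 4336 at 1 week and 1889.5 at 2 months, 2.29-fold lower (2.26 to 2.33). The laminin chain Lamb2 went the other way, at 123, 53.8 and 97.7 CPM. All 5 lower members were still above their control levels at 2 months.

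Genes known to respond to laminar flow lay above their 1-week levels, most of them by less than 2-fold. All 8 members of the flow list had a ratio above 1, 2 of them at least 2-fold, with a median log2 ratio of 0.73. The count was 1 when dividing cells or cells with markers of another class were left out, when cells were thinned or weighted equally, and with a minimum of 200 UMIs and 20 CPM. Klf2 and Klf4, transcription factors induced by flow, were at 1804, 614 and 989.9 CPM and 1407, 512 and 1089 CPM, so that Klf4 was 2.13 (2.07 to 2.19) times its 1-week level. Klf4 was seen in 88.97%, 70.6% and 86.2% of thinned cells, but also in 60.5% and 79.1% of fibroblasts at the operated times. Thbd, the anticoagulant thrombomodulin, was at 232, 102 and 197 CPM and endothelial nitric oxide synthase Nos3 at 67.6, 70.4 and 106 CPM. Piezo1, a channel that senses stretch, differed little, at 63.8, 103 and 105 CPM.

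Among arterial genes 4 of 14 were higher and 1 lower. Alpl, alkaline phosphatase, was at 70.04 CPM in the control library, 3.39 at 1 week and 19.7 at 2 months, 5.802 times the 1-week level (4.32 to 7.92), and the arterial kinase Bmx at 51.7 CPM in the control library, 18.4 at 1 week and 54.1 at 2 months, 2.94 times the 1-week level (2.56 to 3.37). Cxcl12, a chemokine of arterial endothelium, and the chaperone clusterin, Clu, were 2.52 and 2.398 times their 1-week levels. Hey1, a Notch target, went the other way, at 77.4 CPM in the control library, 171 at 1 week and 52.1 at 2 months, 3.29-fold lower (3.02 to 3.58). Its relative Hey2 was at 9.26, 3.45 and 8.38 CPM, so the Notch list as a whole had 1 higher and 1 lower member among 11. The venular and leukocyte-adhesion genes had 2 higher and 0 lower of 15 measured. The higher ones were von Willebrand factor, Vwf, at 253, 243 and 505 CPM, and the granulocyte growth factor Csf3, at 79.6, 30.2 and 72.4 CPM, while the adhesion molecules Selp, Sele and Icam1 stayed under 2-fold at ratios of 0.949, 0.708 and 1.17. No member of this list was higher when dividing cells were left out, when cells were thinned or when each cell had equal weight. The mucosal address molecule Madcam1 had too few UMIs to be measured. In the BMP list 2 of 11 were higher: Bmp6, a ligand that endothelium makes in iron control and vessel growth, was at 36.1 CPM in the control library, 7.96 at 1 week and 42.4 at 2 months, 5.33 times the 1-week level (4.39 to 6.51), and Bmp4 at 91.6, 73.4 and 158 CPM. Their targets Id1 and Id3 had ratios of 0.759 and 0.897. Of the receptors for VEGF, angiopoietins and apelin, Kdr and Flt1 had ratios of 1.12 and 1.44, and Flt4, which lymphatic endothelium uses, was at 16.4, 26.3 and 65.2 CPM.

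Lymphatic cells were a larger part of endothelium at 2 months. Cells with at least 3 UMIs of Prox1, Lyve1, Mmrn1, Ccl21a and Reln together were 8 of 981 (0.815%, 0.353 to 1.60) in the control, 30 of 1332 (2.25%, 1.52 to 3.20) at 1 week and 88 of 928 (9.48%, 7.67 to 11.6) at 2 months. All 7 lymphatic markers were higher at 2 months, with summed levels of 53.5, 296 and 1518 CPM in the 3 libraries. The chemokine Ccl21a, which guides immune cells into lymph vessels, was at 12.6, 209 and 963 CPM, the lymphatic extracellular protein Mmrn1 at 0.446, 19.1 and 172 CPM and the lymphatic master regulator Prox1 at 4.91, 10.7 and 59.1 CPM. Without these cells the receptor list had 0 higher members, so that Flt4 no longer reached 2-fold, and the tip-cell list had 1 in place of 2. The 29 endothelial genes named by the rule on the largest ratios all stayed at least 2-fold and in their direction. Transcripts of other cells moved too: all 8 mural markers were higher (115.6 to 483 CPM in sum), the lubricant gene Prg4 of lining fibroblasts was at 4355, 240.4 and 1532 CPM, and the 5 erythroid genes summed to 3098, 569 and 54.4 CPM. The part of these transcripts in the endothelial differences was not tested beyond leaving cells out.

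The 12 endothelial genes with the largest ratios included Penk, Timp4, Tpm3-rs7, Htra4, Fmo2, Cp, Pkhd1l1, Cytl1, Ccdc3, Cyp26b1 and Tnxb. Fmo2, a flavin monooxygenase, was at 267 CPM in the control library, 20.04 at 1 week and 250.5 at 2 months, 12.5 times the 1-week level (11.1 to 14.1), and was seen in 126 cells at 1 week and 553 at 2 months. The secreted protein Cytl1 was at 318 CPM in the control library, 24.5 at 1 week and 288 at 2 months, 11.7 times the 1-week level (10.6 to 13.1), and was found in 137 cells at 2 months. Both genes lay near their control levels at 2 months. Penk, the precursor of enkephalin peptides, was at 76.8 CPM in the control library, 1.48 at 1 week and 80.1 at 2 months, 54.1 times the 1-week level (36.1 to 84.8), but 5 cells held 40.7% of its 2-month UMIs and fibroblasts expressed it at 80.3 CPM. The protease Htra4 rested on few cells as well (69.1% in 5 cells), and so did Cyp26b1, which breaks down retinoic acid (59.3%). Tnxb, at 24.9, 3.39 and 35.5 CPM, Ccdc3, at 50.97, 4.19 and 47.7 CPM, and the ferroxidase ceruloplasmin, Cp, at 79.4, 10.4 and 128 CPM, were also higher in fibroblasts of the same libraries. Pkhd1l1, a large membrane protein, was at 4.68, 2.47 and 30.3 CPM and nearly absent from fibroblasts (0.0468 and 0.127 CPM).

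The 12 lowest ratios belonged to Ccl5, Gdpd3, C1qtnf3, Mest, H19, Moxd1, Cd276, Asb4 and 4 genes of cell division, Ccnb2, Ube2c, Cenpe and Cdk1. Moxd1, a monooxygenase-like protein, was at 3.79 CPM in the control library, 115 at 1 week and 7.35 at 2 months, 15.7-fold lower (12.7 to 19.5), and was seen in 646 cells at 1 week against 69 at 2 months. Mest, an imprinted gene of fetal growth, was at 13.4 CPM in the control library, 179 at 1 week and 8.62 at 2 months, 20.7-fold lower (17.1 to 25.3), and Cd276, an immune checkpoint ligand that growing vessels carry, at 1.45 CPM in the control library, 81.2 at 1 week and 10.8 at 2 months, 7.495-fold lower (6.28 to 9.004). For these 3 genes the control lay near the 2-month level or below it. Ccl5, a chemokine of T cells, had 355 UMIs at 1 week and 0 at 2 months, at least 92.3-fold lower with 3 UMIs as the floor of a class sum, but 92.96% of its 1-week UMIs came from 5 cells. Gdpd3, a phospholipase, was at 138 CPM in the control library, 124 at 1 week and 1.98 at 2 months, 62.6-fold lower (42.3 to 96.98), so it was low in the 2-month library alone.

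**Figure D2:**
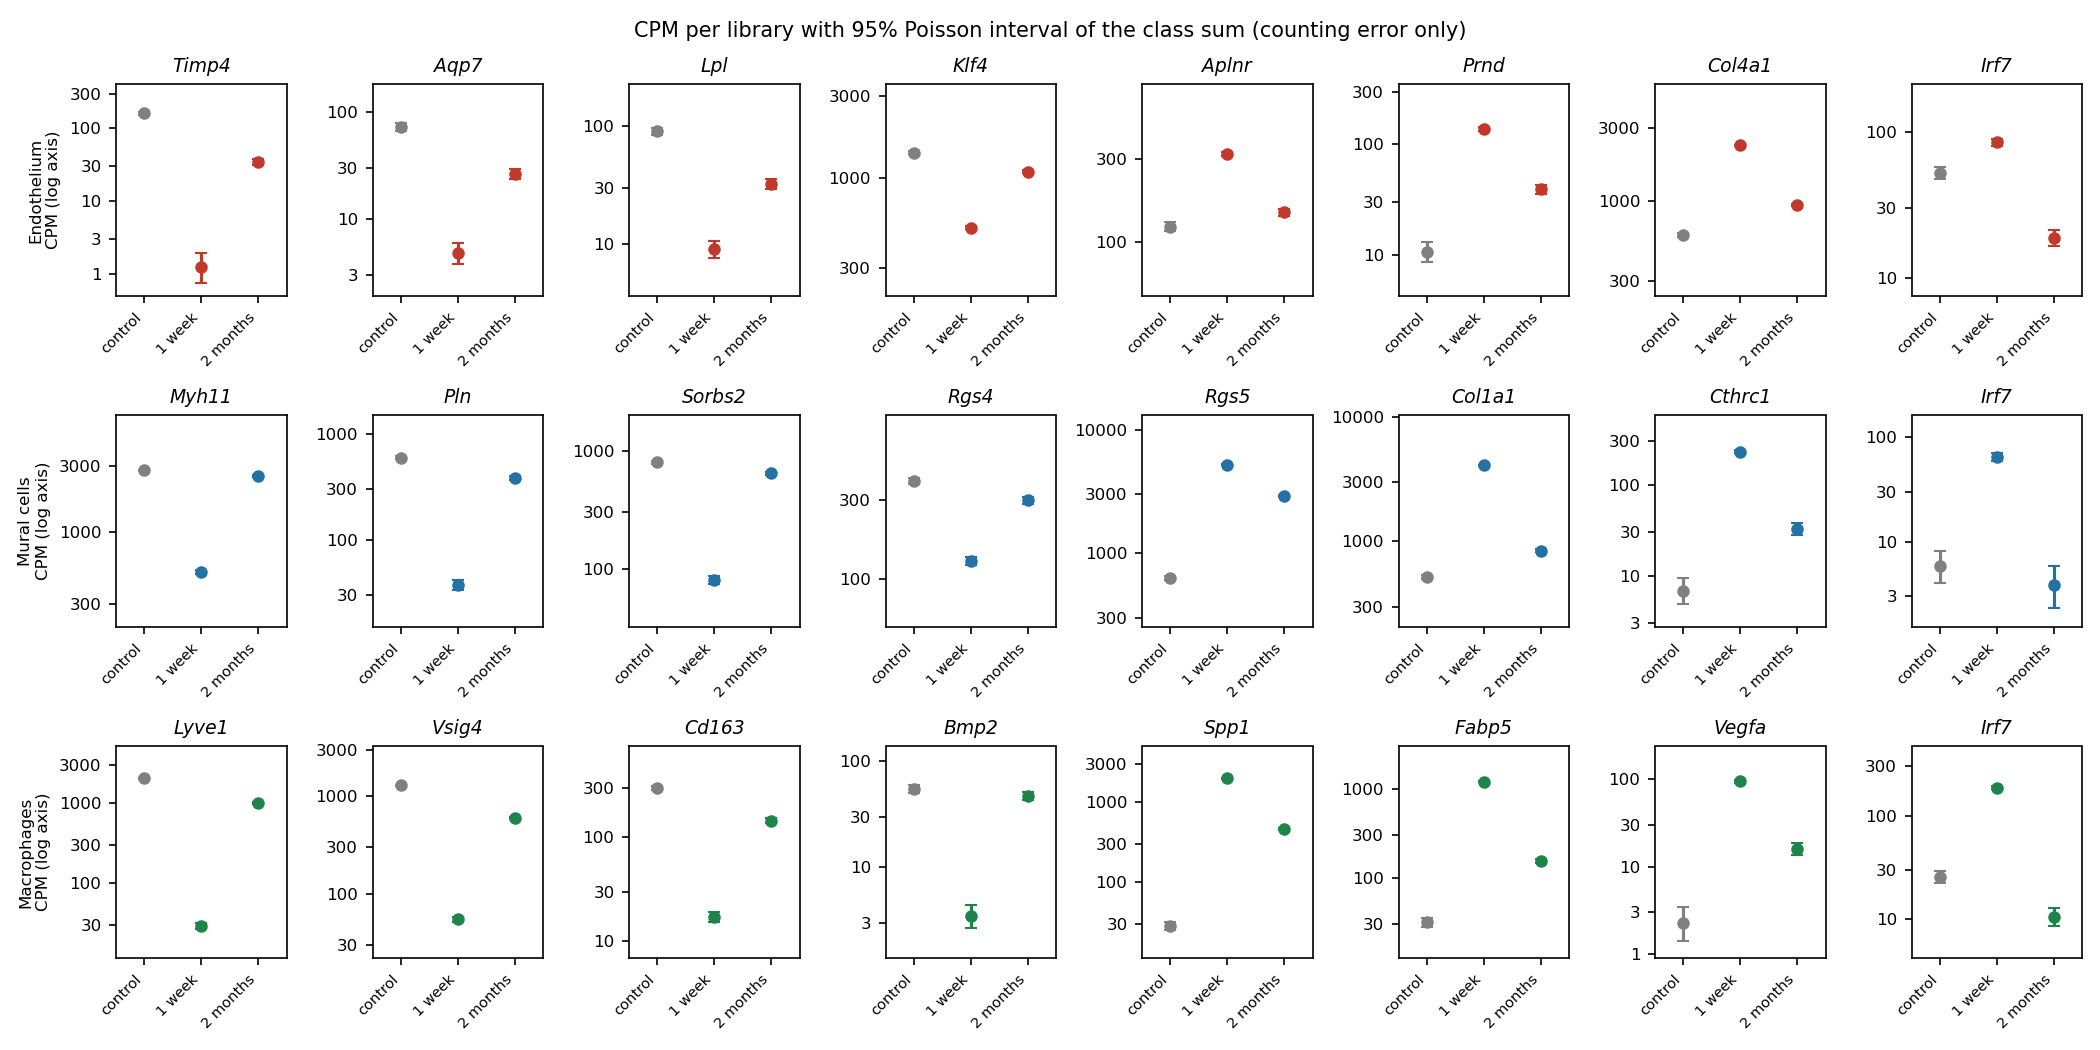
CPM of 8 genes in each class (log axes, each panel with its own range) in the control, 1-week and 2-month libraries; points are class sums of 1 library each and bars are 95% Poisson intervals, which cover counting error only. In endothelium Timp4 was at 1.23 CPM at 1 week and 34.9 at 2 months, in mural cells Myh11 at 516 and 2543, and in macrophages Lyve1 at 29.1 and 1005, while Irf7 was lower at 2 months in all 3 classes.

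Mural cells held more contractile and less matrix transcript at 2 months. Of 20 smooth-muscle contractile genes, 15 were higher and 0 lower, their median log2 ratio was 1.92, and their sum was 56150.3 CPM in the control library, 13928 at 1 week and 42652 at 2 months. Fibroblasts had a median of -0.42 for these genes. Myh11, the smooth-muscle myosin heavy chain (chromosome 16, 14194535 to 14291372, minus strand), was at 2793 CPM in the control library, 516 at 1 week and 2543 at 2 months, 4.93 times the 1-week level (4.77 to 5.103). Thinned mural cells with a Myh11 UMI were 91.9% in the control library, 53.3% at 1 week and 87.6% at 2 months, against 0.791% and 1.19% of fibroblasts at the operated times. The 2-month level of Myh11 was thus close to the control. Pln, phospholamban, the brake on the calcium pump of the sarcoplasmic reticulum (chromosome 10, 53337667 to 53345987, plus strand), was at 591 CPM in the control library, 37.8 at 1 week and 379.7 at 2 months, 10.03 times the 1-week level (8.93 to 11.3). Sorbs2, an adaptor of actin anchorage sites, was at 793, 80.01 and 641 CPM, Lmod1, which seeds actin filaments, at 877, 110.1 and 771 CPM, and calponin, Cnn1, at 299, 82.1 and 459 CPM. These 3 were 8.01 (7.39 to 8.705), 6.998 (6.52 to 7.51) and 5.59 (5.14 to 6.09) times their 1-week levels. The filament genes Acta2, Tagln and Myl9 were 2.49, 3.77 and 3.81 times higher in CPM, from 1-week levels of 4334, 2642 and 1068. Myocd, the co-activator of these genes, was at 44.5 CPM in the control library, 16.6 at 1 week and 68.8 at 2 months, 4.14 times the 1-week level (3.405 to 5.05). Desmin, Des, hardly differed, at 494, 410.0 and 404 CPM.

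The makeup of the class moved with this list. Mural cells with at least 1 Myh11 UMI were 91.6% (89.3 to 93.6) of control cells, 68.9% (65.4 to 72.3) of those at 1 week and 91.5% (88.4 to 93.97) of those at 2 months. The 221 cells without Myh11 at 1 week compare with 36 at 2 months and 58 in the control. Within Myh11-positive cells alone the contractile median log2 ratio was 1.64, with 15 of 20 higher. In cells under 0.2% fibroblast transcripts, 99 at 1 week and 253 at 2 months, it was 1.23, with 13 higher and 0 lower. In cells without Myh11 it was -0.74, with 0 higher and 5 lower of 12 measured. Myh11 is itself on the list, so the split is a description of where the difference lay.

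Of 15 pericyte genes 1 was higher and 1 lower, with a median log2 ratio of -0.39. Rgs5, a regulator of G-protein signalling that marks pericytes, was at 629 CPM in the control library, 5223 at 1 week and 2903 at 2 months, 1.799-fold lower (1.77 to 1.83), a difference under 2-fold, and its 2-month level stayed above the control. Thinned cells with Rgs5 were 32.7%, 77.8% and 53.2%. Its relative Rgs4 took the opposite course, at 391.6 CPM in the control library, 128 at 1 week and 301 at 2 months, 2.35 times the 1-week level (2.17 to 2.54). Ndufa4l2, a subunit-like protein of the respiratory chain induced by low oxygen, was at 567 CPM in the control library, 722 at 1 week and 348 at 2 months, 2.07-fold lower (1.97 to 2.18). Kcnj8 and Abcc9, the 2 parts of the potassium channel of pericytes, had ratios of 0.624 and 0.682, and the growth factor receptor Pdgfrb 0.761. Among ligands and receptors of vessel stability 1 of 15 was lower, the Notch target Hey1, at 16.2, 74.9 and 25.98 CPM. Angpt1, the ligand of Tie2, was at 32.9, 25.5 and 40.96 CPM, a ratio of 1.604. Cytokines and chemokines had 3 higher and 1 lower of 18 measured. Ccl19, the chemokine of lymphoid stroma, was at 11.1 CPM in the control library, 30.2 at 1 week and 127 at 2 months, 4.19 times the 1-week level (3.63 to 4.85), and Cxcl9, a chemokine induced by interferon gamma, at 1.94 CPM in the control library, 27.4 at 1 week and 1.71 at 2 months, 16.03-fold lower (8.302 to 35.5). When cells needed 1000 genes and no more than 5% mitochondrial UMIs, the median of this list moved from 0.20 to 0.99, with 9 members higher.

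Matrix genes were lower in mural cells, 13 of 18 against 0 higher, with a median log2 ratio of -1.52. Fibroblasts of the same libraries had a median of -1.51 for these genes. Col1a1, a chain of collagen I, was at 516 CPM in the control library, 4097 at 1 week and 842 at 2 months, 4.87-fold lower (4.72 to 5.02). Cthrc1, a secreted protein of activated matrix producers, was at 6.86 CPM in the control library, 231 at 1 week and 32.4 at 2 months, 7.13-fold lower (6.098 to 8.39), and Col12a1 at 13.2 CPM in the control library, 325 at 1 week and 67.7 at 2 months, 4.805-fold lower (4.303 to 5.38). Periostin, Postn, was at 89.6, 869.8 and 250.3 CPM. It was seen in 12.6%, 75.9% and 29.02% of thinned mural cells, but in 88.9% and 26.2% of fibroblasts, above the mural share at 1 week and near it at 2 months, so the Postn shares cannot be told from background. Fibronectin, Fn1, and thrombospondin, Thbs1, had ratios of 1.36 and 1.74. Basement-membrane genes had 8 lower and 2 higher of 13. Lamb1 and Col15a1 were 5.59-fold and 5.47-fold lower, whereas Lama5 and Lamb2, laminin chains of mature vessels, were at 84.8, 28.2 and 69.98 CPM and 271, 111 and 295 CPM. Since mural cells had no limit on fibroblast transcripts, the matrix difference was also taken in cells under 0.2%. There the median log2 ratio of the list was -1.46, with 11 of 16 measured members lower and 1 higher. Col1a2 and Col3a1, which set that limit, are members of the list, so the limit fixes part of this value. In cells without Myh11 the median was -0.87, with 8 of 18 lower. The fibroblast markers of the class summed to 12122, 15080 and 8782 CPM with Pdgfra at 0 by the gate. Their part in the matrix difference was not tested otherwise.

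The 12 mural genes with the largest ratios were Bglap2, Pappa2, Efhd1, Plin4, Saa3, Timp4, Npnt, Pgm5, Perp, Nts, Wfdc1 and Grip2. Plin4, a coat protein of lipid droplets, was at 90.3 CPM in the control library, 1.71 at 1 week and 42.1 at 2 months, 24.6 times the 1-week level (14.6 to 44.7), in 12 cells at 1 week and 121 at 2 months. Pgm5, a protein of muscle attachment plaques, was at 80.3 CPM in the control library, 3.08 at 1 week and 53.1 at 2 months, 17.3 times the 1-week level (11.6 to 26.7), and Perp, a junction protein, at 91.4 CPM in the control library, 3.08 at 1 week and 51.02 at 2 months, 16.6 times the 1-week level (11.1 to 25.6). Wfdc1, a secreted protein of smooth muscle, was at 155, 5.02 and 79.5 CPM, and Timp4 at 506, 7.07 and 171 CPM, in 59.7%, 2.32% and 23.7% of thinned mural cells. All 5 had control levels above the 2-month levels. In others a handful of cells decided the sum. The acute-phase gene Saa3 (1.23, 7.29 and 178 CPM) had 99.3% of its 2-month UMIs in 5 cells, and its log2 ratio was -0.32 under the lower limit on fibroblast transcripts. Bglap2, osteocalcin, had 88.5% in 5 cells, the neuropeptide Nts 86.1% and the protease Pappa2 50.3%.

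Lowest were H19, Mest, Gdpd3, Col11a1, Basp1, Ifit1, Ifit3, Mmp13, Fbn2, Itm2a, Sox11 and Tnn. H19, an imprinted non-coding RNA of fetal growth, had 1381 UMIs at 1 week and 2 at 2 months, a ratio of 0.00241 (0.000292 to 0.00872), at 1.23, 157 and 0.379 CPM. Mest had 1030 and 2 UMIs, a ratio of 0.00323 (0.000391 to 0.0117). Both genes were low in the control too, Mest at 0.528 CPM. Itm2a, a membrane protein of developing cartilage and muscle, was at 15.7 CPM in the control library, 241 at 1 week and 10.2 at 2 months, 23.6-fold lower (17.99 to 31.5), the developmental transcription factor Sox11 at 6.86 CPM in the control library, 38.2 at 1 week and 1.71 at 2 months, 22.4-fold lower (11.6 to 49.4) and the fetal fibrillin Fbn2 at 0.176 CPM in the control library, 35.6 at 1 week and 1.33 at 2 months, 26.8-fold lower (12.8 to 67.2). Tnn, tenascin-W, an embryonic matrix protein, was at 0 CPM in the control library, 55.96 at 1 week and 2.66 at 2 months. Col11a1, Mmp13 and Basp1, a membrane-bound growth-cone protein, were 56.8-fold, 27.3-fold and 52.4-fold lower, from 7, 16 and 6 UMIs at 2 months. A few cells also weighed on the 1-week sums of these 12 genes. The share of 1-week UMIs in 5 cells ran from 6.83% for Gdpd3 to 50.3% for Mmp13, with 37.2% for Col11a1 and 34.4% for H19.

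**Figure D3:**
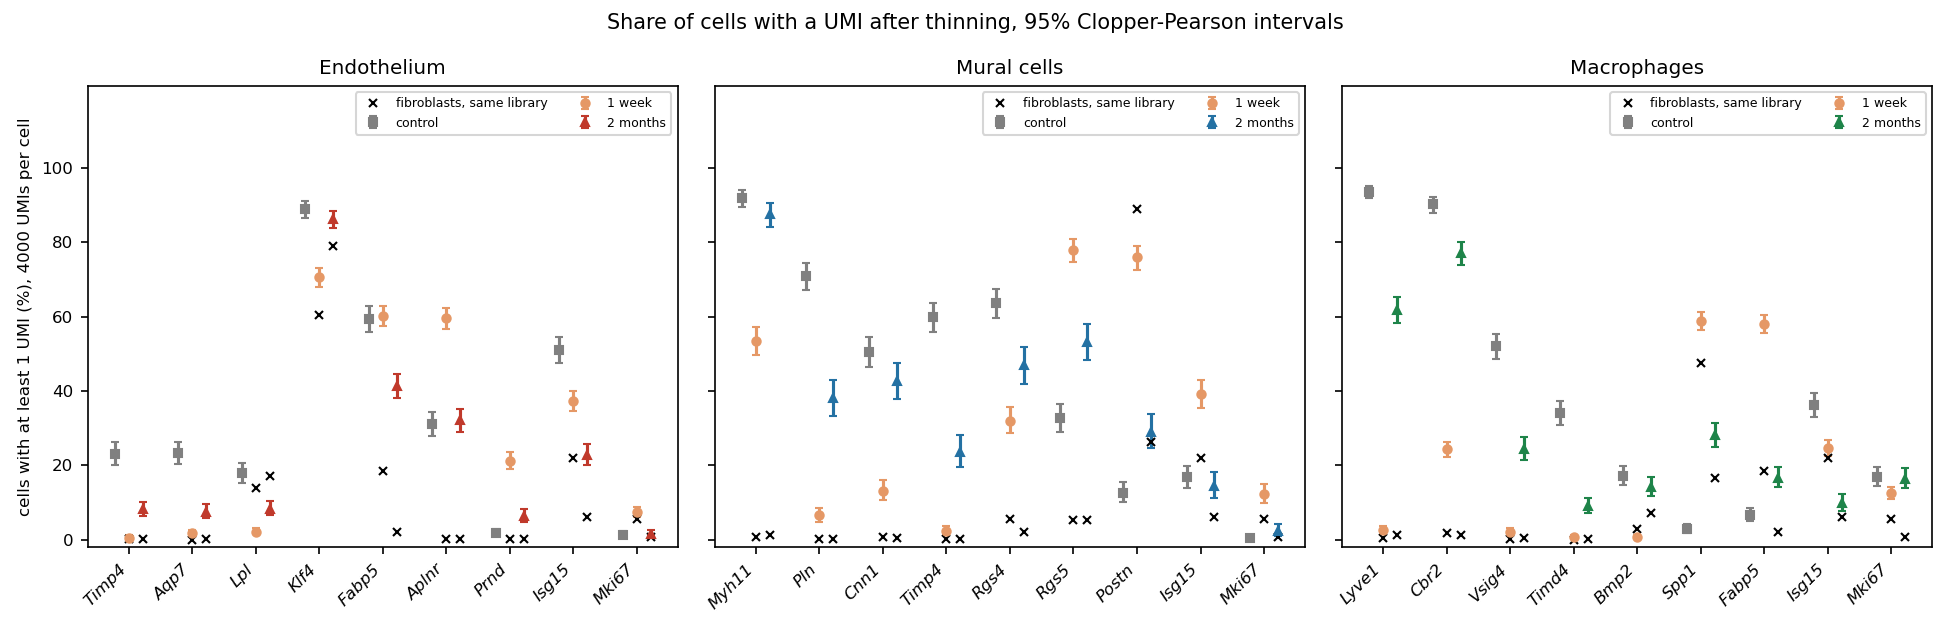
Share of cells with at least 1 UMI of 9 genes in each class after thinning every cell to 4000 UMIs (y axis, %), with 95% Clopper-Pearson intervals, for the control, 1-week and 2-month libraries; crosses are fibroblasts of the 2 operated libraries thinned alike. Myh11 in mural cells and Lyve1 in macrophages were lowest at 1 week (91.9%, 53.3% and 87.6% and 93.6%, 2.65% and 61.8% in the 3 libraries), while Lpl in endothelium lay below the fibroblast share at both operated times, and Postn in mural cells lay below it at 1 week, with a 2-month interval that holds it.

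Resident macrophage genes were higher at 2 months and lipid-associated genes lower. Of 20 resident synovial genes 10 were higher and 0 lower, the median log2 ratio was 1.17, and the sum was 20724 CPM in the control library, 8232 at 1 week and 14729 at 2 months. The same genes had a median log2 ratio of 0.69 in fibroblasts. Lyve1, a hyaluronan receptor of macrophages along vessels (chromosome 7, 110850607 to 110863239, minus strand), was at 2028 CPM in the control library, 29.1 at 1 week and 1005 at 2 months, 34.5 times the 1-week level (31.6 to 37.6). The share of thinned macrophages with Lyve1 was 93.6% in the control library, 2.65% at 1 week and 61.8% at 2 months, and it was seen in 0.345% and 1.29% of fibroblasts at the operated times. Vsig4, a complement receptor, was at 1302 CPM in the control library, 55.03 at 1 week and 605 at 2 months, 10.99 times the 1-week level (10.3 to 11.8), and Timd4, which binds dying cells, at 109 CPM in the control library, 2.38 at 1 week and 28.05 at 2 months, 11.8 times the 1-week level (8.57 to 16.5). Cd163, the receptor for haptoglobin and haemoglobin, was at 299 CPM in the control library, 17.3 at 1 week and 144 at 2 months, 8.32 times the 1-week level (7.37 to 9.42). Thinned cells with these 3 transcripts were 51.95%, 2.18% and 24.3% for Vsig4, 33.96%, 0.706% and 9.01% for Timd4 and 47.6%, 2.88% and 22.6% for Cd163. For every one of them the 1-week share was the lowest and the 2-month share lay between it and the control. The folate receptor Folr2 was at 1244, 254 and 859.8 CPM, the carbonyl reductase Cbr2 at 994, 148 and 732 CPM and the eosinophil chemokine Ccl24 at 230.4, 16.8 and 163 CPM. Retnla, a secreted product of alternatively activated macrophages (chromosome 16, 48842551 to 48844461, plus strand), was at 1459.5 CPM in the control library, 10.9 at 1 week and 598 at 2 months, 54.7 times the 1-week level (47.6 to 63.1), and was seen in 26.2%, 0.353% and 8.87% of thinned cells. Mrc1, the mannose receptor, had a ratio of 1.79, and Cx3cr1, the fractalkine receptor of lining macrophages, 1.08, so both stayed under 2-fold.

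Among lipid-associated genes 11 of 19 were lower and 1 higher, with a median log2 ratio of -1.34 and sums of 11949.6 CPM in the control library, 42537 at 1 week and 19845 at 2 months. In fibroblasts the median of these genes was -0.19. Spp1, osteopontin (chromosome 5, 104435118 to 104441050, plus strand), was at 28.4 CPM in the control library, 1986 at 1 week and 467 at 2 months, 4.26-fold lower (4.13 to 4.39). Fabp5 was at 31.5 CPM in the control library, 1197 at 1 week and 156 at 2 months, 7.68-fold lower (7.29 to 8.09), and the lipid carrier Apoe at 3412 CPM in the control library, 22419.5 at 1 week and 7789 at 2 months, 2.88-fold lower (2.86 to 2.901). Gpnmb, a glycoprotein of lysosomes, was at 7.03, 229 and 76.4 CPM, the lectin Lgals3 at 669, 3899.5 and 1269 CPM and the elastase Mmp12 at 4.32, 72.4 and 11.9 CPM. All 6 were between the control and the 1-week level at 2 months. Spp1 was seen in 2.84%, 58.8% and 28.1% of thinned macrophages, but in 47.5% and 16.5% of fibroblasts at the operated times, below the macrophage share at each time. Fabp5 was seen in 6.63%, 57.98% and 16.7% (fibroblasts 18.5% and 1.97%). Trem2, the lipid receptor that gives the programme one of its names, differed little, at 518, 862 and 746 CPM, and in 74.2%, 88.9% and 79.97% of thinned cells. The tetraspanin Cd9 was the higher member, at 464, 352 and 732 CPM.

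Inflammatory cytokines and chemokines had 0 higher and 6 lower of 21 measured. Il1b, interleukin-1 beta, was at 55.1 CPM in the control library, 278 at 1 week and 127 at 2 months, 2.18-fold lower (2.05 to 2.32), the prostaglandin synthase Ptgs2 at 7.78, 85.1 and 35.8 CPM, and the monocyte attractants Ccl8 and Ccl12 at 179.7, 655 and 233 CPM and 16.002, 100.7 and 45.6 CPM. Tnf, tumour necrosis factor, was at 590.4, 219.9 and 397 CPM, a ratio of 1.81, and Ccl2 at 559, 191 and 342 CPM, a ratio of 1.79, so these cytokines lay on the other side of 1. Monocyte genes had 5 higher and 5 lower of 15, and 3 higher and 5 lower of 14 without the cells rich in neutrophil transcripts. Ms4a4c, a membrane protein of recruited cells, was at 4.76 CPM in the control library, 132 at 1 week and 5.82 at 2 months, 22.6-fold lower (17.4 to 30.1), Plac8 at 5.51, 39.6 and 5.71 CPM and Ly6c2, the marker of classical monocytes, at 0.108, 42.8 and 12.99 CPM. Ccr2, the receptor that brings monocytes into tissue, was at 29.7, 238 and 177 CPM, under 2-fold in CPM, and in 5.44%, 40.6% and 20.7% of thinned cells. The proteoglycan Vcan was at 149.9 CPM in the control library, 18.8 at 1 week and 167 at 2 months, 8.86 times the 1-week level (7.898 to 9.97) and fibronectin, Fn1, at 644 CPM in the control library, 457 at 1 week and 1287 at 2 months, 2.82 times the 1-week level (2.74 to 2.89). Chil3, a chitinase-like protein of granulocytes and monocytes, was at 0.865, 5.02 and 36.3 CPM.

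Neutrophil transcripts moved with the 2-month macrophages. Of 8 neutrophil markers 7 were higher, with sums of 93.7, 1401 and 5210 CPM in the 3 libraries, and macrophages with at least 10 UMIs of 6 of them were 1 of 952 (0.105%), 19 of 1737 (1.09%) and 33 of 786 (4.198%). S100a8 and S100a9, the calcium-binding proteins of granulocytes, were at 32.8, 472 and 1841 CPM and 33.8, 588 and 2184 CPM. The part of these transcripts in Chil3, Mmp9 (2.38, 6.397 and 48.3 CPM) and the other granulocyte-associated genes was not tested. Without these cells all 30 macrophage genes named by the rule on the largest ratios kept their direction and a 2-fold difference.

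Receptors for clearance had 4 higher and 2 lower of 14 measured. The lower ones were the antibody receptors Fcgr4, at 1.73 CPM in the control library, 69.2 at 1 week and 8.83 at 2 months, 7.84-fold lower (6.29 to 9.88), and Fcgr1, at 53.2 CPM in the control library, 191 at 1 week and 68.9 at 2 months, 2.77-fold lower (2.55 to 3.01), while the scavenger receptor Colec12 was at 226 CPM in the control library, 16.3 at 1 week and 66.9 at 2 months, 4.095 times the 1-week level (3.57 to 4.71). Of the complement genes, C4b was at 119, 20.4 and 88.9 CPM, whereas Cfb, factor B of the alternative pathway, was at 24.8, 45.99 and 12.5 CPM. Growth factors had 4 higher and 1 lower of 14. Vegfa, the main growth factor of vessels, was at 2.27 CPM in the control library, 94.6 at 1 week and 16.1 at 2 months, 5.88-fold lower (4.99 to 6.97), and was seen in 0.592%, 19.8% and 3.49% of thinned macrophages, with 13.7% and 14.7% of fibroblasts as background at the operated times. The 2-month share of Vegfa lay below that background and is not read as expression. Bmp2, a ligand of bone and vessel formation, was at 55.1 CPM in the control library, 3.49 at 1 week and 46.95 at 2 months, 13.5 times the 1-week level (10.4 to 17.7), and was seen in 17.04%, 0.765% and 14.2% of cells. Gas6, the bridge between dying cells and Axl or Mertk, was at 738, 184 and 469.6 CPM, and Hbegf, an EGF receptor ligand, at 144, 20.7 and 44.8 CPM. Among iron genes 4 of 12 were higher and 2 lower. Slc40a1, the iron exporter ferroportin, was at 7.78 CPM in the control library, 50.6 at 1 week and 9.25 at 2 months, 5.48-fold lower (4.405 to 6.89), haem oxygenase Hmox1 at 566 CPM in the control library, 751 at 1 week and 251 at 2 months, 2.998-fold lower (2.87 to 3.13), and the transferrin receptor Tfrc at 51.5, 20.6 and 44.5 CPM. Osteoclast-type genes had 1 higher and 2 lower of 9, and Acp5, the acid phosphatase of osteoclasts, was at 42.6, 86.5 and 25.97 CPM.

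The 12 macrophage genes with the largest ratios were Cxcl13, Cd209d, Retnla, Lyve1, Siglech, Ildr2, Scml4, Tpm3-rs7, Tmod1, Cmah, Rarb and Bmp2. Cd209d, a C-type lectin of resident macrophages, was at 53.7 CPM in the control library, 0.264 at 1 week and 44.7 at 2 months, 169 times the 1-week level (71.9 to 523), and Siglech, a sialic-acid lectin, at 30.3 CPM in the control library, 0.952 at 1 week and 25.04 at 2 months, 26.3 times the 1-week level (16.3 to 45.2). Cmah, an enzyme of sialic-acid synthesis, and Rarb, a retinoic acid receptor, were at 61.95, 5.02 and 70.3 CPM and 12.9, 1.48 and 20.7 CPM. Cxcl13, the B-cell chemokine, had 0 UMIs at 1 week and 296 at 2 months, at least 194-fold higher by the floor of 3 UMIs, but 96.3% of them came from 5 of the 14 cells that had any. The lowest ratios were those of Hal, H19, C1qtnf3, Ifit2, Ms4a4c, Ifit3, Irf7, Postn, Oas3, Rhov, Slfn1 and Cd72. Hal, histidine ammonia-lyase, had 1229 UMIs at 1 week and 2 at 2 months, a ratio of 0.003198 (0.000387 to 0.0116), and was at 152 CPM in the control. Cd72, a receptor that restrains immune cells, was at 11.9 CPM in the control library, 239 at 1 week and 23.8 at 2 months, 10.04-fold lower (8.79 to 11.5). Postn and C1qtnf3 are fibroblast genes, and fibroblasts of the same libraries went from 2511 to 221 CPM of Postn and from 793 to 50.5 CPM of C1qtnf3.

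The interferon response was lower at 2 months in all 3 classes. In endothelium 11 of 25 measured genes were lower and 0 higher, in mural cells 18 of 23 and 0, and in macrophages 20 of 25 and 0. The median log2 ratios were -0.81, -1.91 and -1.72, and -1.19 over the 25 genes in fibroblasts. Irf7, the transcription factor that amplifies interferon production (chromosome 7, 141262706 to 141266481, minus strand), was at 52.5 CPM in the control library, 84.7 at 1 week and 18.7 at 2 months, 4.52-fold lower (3.94 to 5.21) in endothelium. In mural cells it was at 5.81 CPM in the control library, 64.9 at 1 week and 3.79 at 2 months, 17.1-fold lower (10.97 to 28.2), and in macrophages at 25.6 CPM in the control library, 186 at 1 week and 10.6 at 2 months, 17.5-fold lower (14.4 to 21.5). Its 2-month level was below the control in all 3 classes. Ifit3, whose promoter holds 2 copies of the response core, was 2.298-fold lower in endothelium, 31.97-fold in mural cells (from 266 UMIs to 5) and 17.8-fold in macrophages. For Ifit1 these differences were 1.98-fold, 44.6-fold and 4.71-fold. In mural cells 5 cells held 40.6% of the 1-week UMIs of Ifit3 and 34.0% of those of Ifit1. Isg15, with 3 overlapping copies of the core, was at 351, 204 and 98.3 CPM in endothelium, 64.2, 243 and 43.999 CPM in mural cells and 239, 141 and 30.9 CPM in macrophages, so its level in endothelium and macrophages was highest in the control. Thinned cells with Isg15 were 51.1%, 37.4% and 22.9% of endothelium, 16.7%, 39.1% and 14.4% of mural cells and 36.2%, 24.5% and 9.81% of macrophages, beside 22.02% and 6.11% of fibroblasts at the operated times. The macrophage shares of Isg15 lay close to those of fibroblasts, and the vessel classes lay above them. Sensors and signal carriers moved less: Stat2 had ratios of 0.998, 0.6696 and 0.9796 and the RNA sensor Ifih1 1.21, 0.808 and 1.13, though the promoters of both hold the core.

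**Figure D4:**
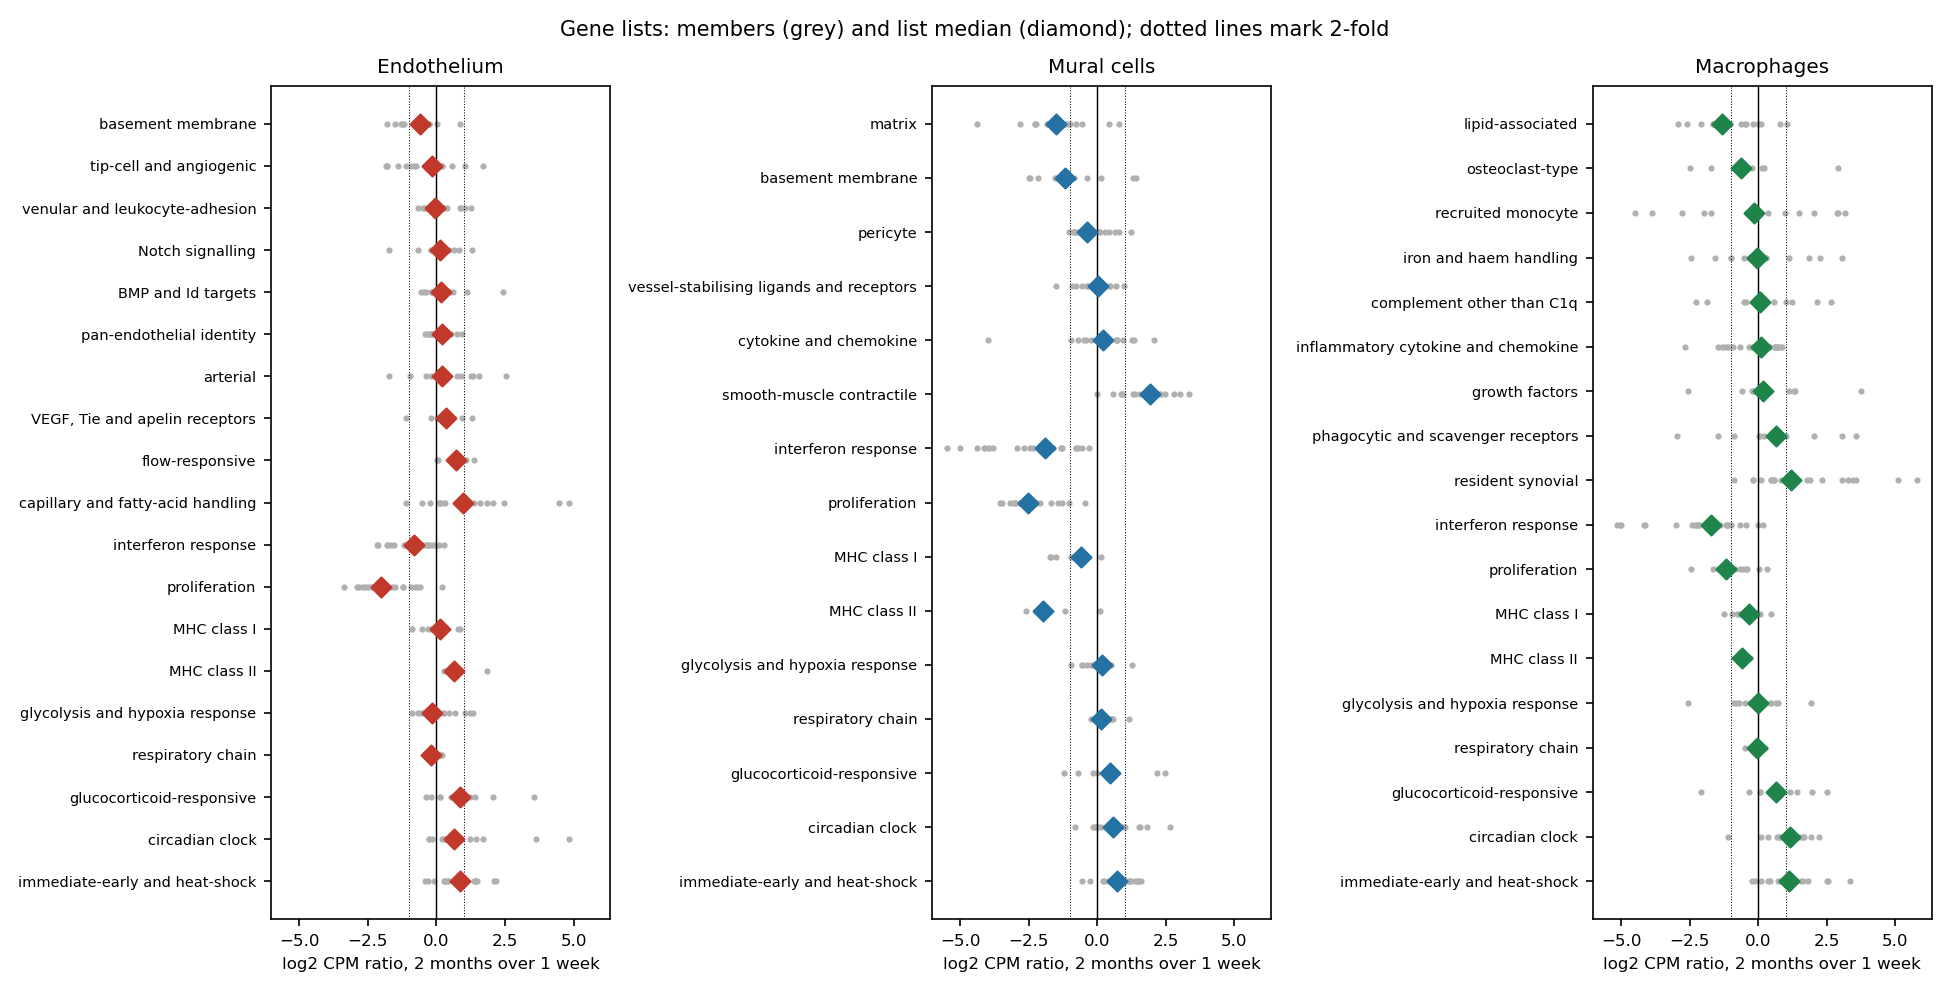
Median log2 CPM ratio, 2 months over 1 week, of each gene list in endothelium, mural cells and macrophages, over members with at least 50 UMIs (diamonds), with the members in grey; values above 0 are higher at 2 months and dotted lines mark 2-fold. Interferon and proliferation lists were below 0 in all 3 classes (-2.02 for proliferation in endothelium, -2.54 in mural cells and -1.19 in macrophages), and the contractile list of mural cells reached 1.92.

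Antigen-presentation genes differed by class. MHC class II genes, which present peptides to helper T cells, had 1 higher and 0 lower of 6 in endothelium, 0 and 5 of 6 in mural cells, and 0 and 0 of 7 in macrophages. Cd74, the invariant chain, was at 199.5, 30.2 and 46.9 CPM in endothelium, 74.8, 36.8 and 6.07 CPM in mural cells and 1883, 4008 and 2677 CPM in macrophages. All 7 class II genes of macrophages had ratios below 1, from 0.651 for H2-Eb1 to 0.819 for H2-DMa. The levels in endothelium and mural cells were a small part of those in macrophages, and the part of free RNA in them was not tested. Of the MHC class I genes with the immunoproteasome 0, 3 and 1 were lower in the 3 classes and 0 higher, and the peptide transporter Tap1 had ratios of 0.542, 0.352 and 0.419.

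Genes of cell division were lower at 2 months in the vessel classes, with less uniformity in macrophages. The counts were 19 lower of 24 in endothelium, 23 of 24 in mural cells and 16 of 24 in macrophages, with none higher. The macrophage count rests on the barcode filter: when cells needed 1000 genes and no more than 5% mitochondrial UMIs, 4 of 24 were lower, with a median log2 ratio of -0.72 in place of -1.19. With dividing cells left out, 3 of 12 measured members were lower in endothelium, 3 of 7 in mural cells and 4 of 12 in macrophages. The genes that define a dividing cell are members of this list, so leaving such cells out fixes part of that outcome. Cells with at least 2 UMIs of dividing-cell genes were 1.94%, 15.4% and 3.34% of endothelium in the control, 1-week and 2-month libraries, 0.432%, 24.2% and 3.55% of mural cells, and 15.2%, 17.4% and 18.3% of macrophages. Fibroblasts had 16.9% and 2.08% at the operated times and a list median of log2 -2.06, so the difference was not particular to vessel cells. Mki67, the antigen Ki-67 of cycling cells, was at 6.58, 57.05 and 16.3 CPM in endothelium, 1.58, 91.6 and 16.5 CPM in mural cells and 64.9, 77.8 and 97.2 CPM in macrophages. Only in macrophages, of the 3 classes, was its CPM not lower at 2 months. Top2a, the topoisomerase of replicated chromosomes, was 4.65-fold, 8.21-fold and 2.49-fold lower. Thinned macrophages with Mki67 were 16.8%, 12.5% and 16.4%, beside fibroblast shares of 5.56% and 0.755% at the operated times.

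Immediate-early and heat-shock genes, which respond within minutes to stress and to tissue digestion, had more higher than lower members at 2 months: 7, 9 and 11 of 21 in endothelium, mural cells and macrophages were higher, with 0 lower. Egr1 had ratios of 4.31, 2.797 and 5.81, and the chaperone Hspa1a was at 2140.5, 43.2 and 243 CPM in macrophages. In the fibroblasts the list had a median log2 ratio of 0.37. Klf2 and Klf4, described under flow, are also known to be induced by dissociation, and the part of tissue handling in these differences was not tested. The higher clock genes were 5 of 16, 5 of 15 and 9 of 15 measured, with 1 lower, Nfil3 in macrophages. In mural cells the count fell to between 1 and 3 under 8 alternatives and in endothelium to 2 of 11 with a minimum of 200 UMIs and 20 CPM. The clock medians were log2 0.63, 0.56 and 1.15 in endothelium, mural cells and macrophages. Over the same genes fibroblasts had 0.83, 0.53 and 0.76, so the difference was not particular to these classes. Dbp, an output regulator of the clock, was at 7.58, 12.8 and 41.1 CPM in endothelium, 8.801, 6.61 and 41.2 CPM in mural cells and 9.298, 11.3 and 53.1 CPM in macrophages. Per1 and Per3, whose promoter windows are printed above, had ratios of 2.31 and 1.63 in endothelium, 1.47 and 3.48 in mural cells and 2.22 and 3.77 in macrophages. Ciart, whose window is printed too, stayed under 2-fold in endothelium and macrophages. In mural cells Ciart had too few UMIs to be measured. Arntl, the activator that peaks at the opposite hour, had ratios of 0.835, 0.962 and 1.27. The hour of harvest of each library was not given, so the hour and the time since surgery cannot be told apart for these genes. Glucocorticoid-responsive genes had 4, 2 and 4 higher members of 12, 12 and 11 measured in endothelium, mural cells and macrophages, and 0, 1 and 1 lower. Their median log2 ratios were 0.87, 0.47 and 0.64, beside 0.83, 0.83 and 0.90 for the same genes in fibroblasts. The lower members were Fkbp5, a chaperone that glucocorticoids induce, at 3.52, 20.2 and 8.72 CPM in mural cells, and the stress-response gene Ddit4, at 6.38, 35.5 and 8.31 CPM in macrophages. Among the higher ones were the metallothionein Mt2 in endothelium, at 143, 29.2 and 123 CPM, and Klf9 in macrophages, at 256, 34.5 and 194 CPM. Glycolysis and hypoxia genes (medians -0.15, 0.17 and -0.01) and nuclear-encoded respiratory chain genes (-0.21, 0.14 and -0.05) had few members at 2-fold. The exceptions included the respiratory subunit Ndufa4 of mural cells, at 472 CPM in the control library, 156 at 1 week and 346 at 2 months, 2.22 times the 1-week level (2.07 to 2.38).

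The 10 genes that differed most in 1 direction in all 3 classes included H19, Tpm3-rs7, Gdpd3, C1qtnf3, Lars2, Pclaf, Irf7, Lcn2 and Myl9. Several of them differed in fibroblasts as well. H19 was at 20.5, 157 and 29.7 CPM at 1 week in endothelium, mural cells and macrophages and at 674 CPM in fibroblasts, which had 13.5 CPM at 2 months. Lars2, the mitochondrial leucyl-tRNA synthetase, was 5.41, 5.6003 and 5.45 times higher at 2 months, and went from 146 to 720.3 CPM in fibroblasts. Its level was near the control at 1 week (206, 178 and 963 CPM in endothelium), so that the 2-month library stood apart. Gdpd3 was low in the 2-month library and Tpm3-rs7 in the 1-week library, as in macrophages, at 96.98, 171 and 22.4 CPM and 84.3, 6.08 and 88.9 CPM. Tpm3-rs7 is named as a copy of the tropomyosin gene Tpm3, whose reads the counting could share between both, so its values are uncertain. The control and 1-week files were written by another release of the counting software than the 2-month file, and its part in these library-wide differences was not tested. Lcn2, the iron-chelating lipocalin of neutrophils and inflamed tissue, was at 9.14, 7.34 and 54.9 CPM, 4.4004, 13.8 and 61.4 CPM and 2.59, 45.04 and 212 CPM, but 5 cells held 89.8% of its 2-month UMIs in mural cells and 69.4% in macrophages. Myl9 was 3.84 times higher in macrophages, with 81.1% of its UMIs in 5 cells, and its log2 ratio there was -0.11 without called doublets.

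**Figure D5:**
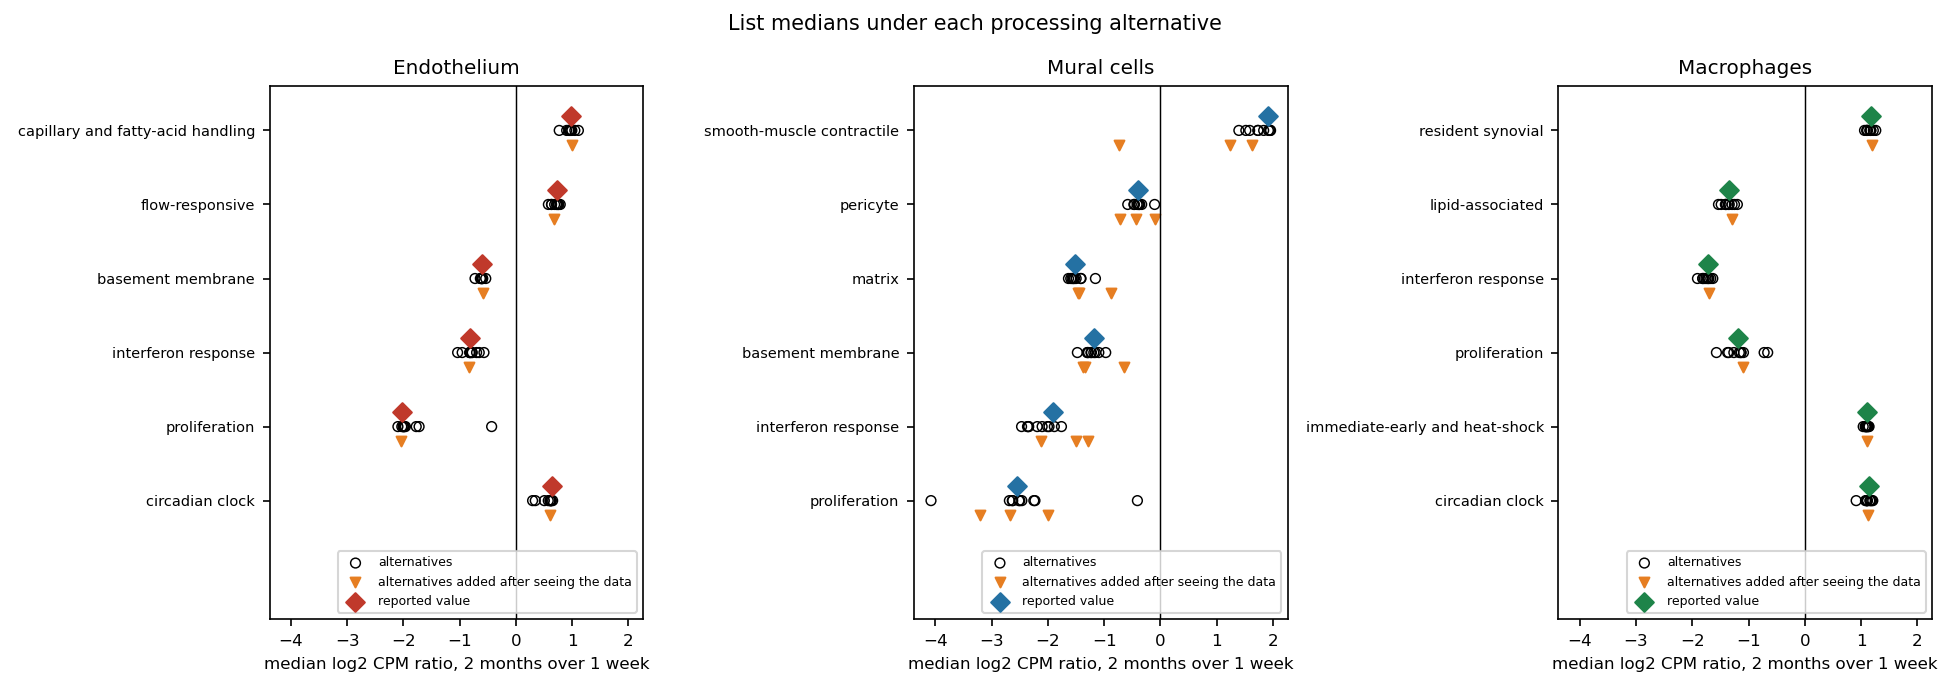
Median log2 CPM ratio, 2 months over 1 week, of 6 gene lists in each class as reported (diamonds) and under each processing alternative (open circles), with alternatives added after the data were seen as triangles. Of the lists drawn, only the contractile list of mural cells changed sign, at -0.74 in cells without Myh11. Proliferation in endothelium and mural cells moved toward 0 when dividing cells were left out, which is partly fixed because the genes that define them are on that list.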

How the data were processed

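Synovium and infrapatellar fat pad cells were measured in 3 droplet libraries (10x 3′ v3 chemistry), 1 for each group. The deposited values are UMI counts per gene and barcode, written by Cell Ranger 5.0.0 (control and 1 week) and 5.0.1 (2 months) per the file headers, while the submitters' processing notes name Cell Ranger 6.0.1 and mm10. Cells were gated as the report states, raw counts were summed per class and library, and sums were scaled to CPM. No test was made between groups. Ratios carry exact conditional binomial intervals, CPM Poisson intervals and shares Clopper-Pearson intervals, all at 95%; a sum under 3 UMIs was raised to 3 for ranking. On simulated counts all changed eligible genes were called (100% in each class), but every planted change was larger than the 2-fold limit. Those counts held Poisson counting error only. With no spread between animals, libraries or cells in them, they cannot stand in for replicates. The genes named beside the list members are the 12 highest and 12 lowest ratios of a class, without mitochondrial, ribosomal, haemoglobin, Xist, Y-linked, clone-named and antigen receptor genes and markers of other classes, and the 10 largest in 1 direction in all 3 classes. A gene that met this rule, and the count of the list that holds it, are not reported here. The members and the gene lists were chosen with earlier results of these data known. Doublets were kept, and their removal (Scrublet) was 1 of the alternatives. Others changed the barcode filter, the gates, the fibroblast limit, the depth per cell, the weighting, the scaling or the count filter, or left out dividing or doubtful cells; those on lymphatic, neutrophil-transcript and Myh11 cells, and on mural cells under 0.2%, were chosen after seeing the data. Gene positions are of GRCm38 (GENCODE vM21) and promoters of RefSeq GRCm38.p6. Python 3.11.15, numpy 2.4.6, pandas 2.3.3, scipy 1.17.1, scanpy 1.11.5 and matplotlib 3.10.9 were used.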

Additional observations from a re-analysis of the deposited data

Results flagged for a closer look

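These 6 genes went opposite ways, each at least 2-fold, in different classes; with 1 library a group the differences between classes were not tested. Bmp2, a bone morphogenetic protein, had a log2 ratio of 2 months over 1 week of -1.29 in endothelium, 1.23 in mural cells and 3.75 in macrophages. Itm2a, a membrane protein of developing tissue, was at 1.14 in endothelium, -4.56 in mural cells and -3.18 in macrophages. Ndufa4l2, a respiratory chain protein induced by low oxygen, was at 1.62 in endothelium and -1.05 in mural cells. It is on the pericyte list, and all 8 mural markers were also higher in endothelium (115.6 to 483 CPM in sum). The part of mural transcripts in its endothelial value was not tested. Apoe and Lpl, genes of lipid transport, were at 1.22 and 1.85 in endothelium and at -1.53 and -1.65 in macrophages. The share of thinned endothelial cells with Lpl lay below that of fibroblasts at the operated times. The part of transcripts from other cells in these endothelial values was not tested. Chst1, a sulfotransferase, was at -1.24 in mural cells and 2.497 in macrophages.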

How the results depend on the processing

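No paired analysis was possible because each group is 1 library and the results come from no test. The share ratios depended on the limit on fibroblast transcripts: at the lower limit (0.1%, mural 0.5%) they were 1.05 in endothelium and 1.32 in mural cells, both reversed, and 0.728 in macrophages. When cells needed 1000 genes and no more than 5% mitochondrial UMIs, the ratio was 0.435 in mural cells and 0.424 in macrophages, and without dividing cells 0.485 in macrophages. For mural cells it was 3.22 under 0.2% fibroblast transcripts, 0.994 in Myh11-positive and 0.205 in Myh11-negative cells. Counts of 2-fold genes also moved, and so did the number of genes that met the minimum, so each count is given with it. As reported, 6584 genes met it in endothelium, 6608 in mural cells and 6100 in macrophages. With the stricter barcode filter mural cells had 279 higher and 276 lower genes of 5657. After thinning to 4000 UMIs 173 of 5584 were higher in endothelium and 253 of 5227 in macrophages. Thinned mural cells had 170 higher and 165 lower of 3338. With 50 UMIs and no CPM minimum the counts were 940 and 482 of 11869 in endothelium. They were 894 and 850 of 10910 in mural cells, and 979 and 606 of 11253 in macrophages. Mural cells under 0.2% fibroblast transcripts had 183 higher and 125 lower of 2965, and those without Myh11 85 and 161 of 2438. Single genes that reversed were Myl9 in macrophages (-0.11 without doublets, -0.21 without cells that hold markers of another class), Saa3 in mural cells (-0.32 at the lower fibroblast limit, -0.91 under 0.2%, -1.36 without Myh11), Lcn2 in mural cells (-0.65 at the lower limit, -2.16 thinned) and Myl9 in mural cells without Myh11 (-0.62). The contractile median was -0.74 there. Named genes that kept their direction but fell under 2-fold were Cenpe in endothelium without dividing cells (-0.64), Myl9 in endothelium without cells that hold markers of another class (0.84) and in macrophages under the stricter barcode filter (0.19), Lcn2 in mural cells with equal weight per cell (0.97) and under 0.2% (0.94), Bglap2 in mural cells under 0.2% (0.47) and C1qtnf3 in Myh11-positive mural cells (-0.66). The cause of these moves was not tested. Of 52 list medians, all stayed within 1.5-fold under 5 alternatives and 50 or 51 under 4 others. Genes under 200 UMIs are limited by depth.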
